A study of Mus musculus with 19 samples.

Results

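The genes of 6 metabotropic glutamate receptors, Grm2, Grm3, Grm4, Grm5, Grm7 and Grm8, were followed through 3 RNA-seq comparisons of the transcription factor gene Pou3f1 in the mouse retina. They were taken by gene symbol alone, 6 of the 35734 genes listed in the series, and all 6 are listed in each of the 3 tables. Grm6, the receptor that ON bipolar cells use to read the photoreceptor signal, was kept apart. It is given below only for its own level and fold change at 14 days.

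Across these comparisons 3 receptors of 1 family branch moved in both directions, and the receptor that moved in the knockout was a different one. Of all genes tested, 20.7% passed at 14 days and 3.04% at 48 h of overexpression, and 10% in the knockout. With so few receptors and such shares, the lack of a shared receptor was not tested and is not read as a finding. The same holds for the lack of a call at 48 h. In retinal cells given extra Pou3f1, Grm7 and Grm4 were higher and Grm8 was lower at 14 days, while none of the 6 passed the test at 48 h. In whole retinas that lack Pou3f1, Grm2 was 2.06-fold higher than in heterozygotes and the other receptors did not pass the test.

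For the overexpression comparisons, eyes of wild type CD1 pups were electroporated in vivo at postnatal day 1 with a Gfp control or with Pou3f1. Fluorescent cells were sorted, several sorts being pooled to 150000 cells per replicate, which gave 3 Gfp and 3 Pou3f1 samples at 48 h and 4 Gfp and 5 Pou3f1 samples at 14 days (after electroporation in the labels, but postnatal day 14 in the protocol). The sources used here do not name the promoter that drives the plasmid. The third comparison used whole retinas of C57B6J embryos at stage E17.5, late in gestation, 2 heterozygous and 2 homozygous for a Pou3f1 knockout allele, so the controls there already lack 1 working copy. The sources used here do not give the deleted part of the gene. The labels' age is used, although the name of the deposited table carries an earlier embryonic day.

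Metabotropic glutamate receptors are G protein coupled receptors that turn glutamate, the transmitter of photoreceptors, bipolar cells and ganglion cells, into slow changes of excitability and release. Group I receptors such as the Grm5 product act through Gq, phospholipase C and calcium stores and sit mostly on the receiving side of a synapse. Group II receptors (Grm2, Grm3) and group III receptors (Grm4, Grm7, Grm8) act through Gi/o, lower cyclic AMP and restrain release, group III mainly at the active zone of the sending terminal. In the rodent retina the Grm2 product is known from cholinergic starburst amacrine cells, the Grm7 product from terminals of the inner plexiform layer and the Grm8 product from photoreceptor terminals, while Grm3 is known from glia as well as neurons in the brain.

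The branches are visible in the coding sequences. Over the longest open reading frames of GENCODE mouse release 21 transcripts, nucleotide identity was 67.6% for Grm2 with Grm3, 68.9% for Grm4 with Grm7, 68.7% for Grm4 with Grm8 and 70.0% for Grm7 with Grm8. The 11 pairs that cross the groups had 56.1% to 60.0% identity. Grm5 has the longest frame, 1203 codons, because of its long intracellular tail, against 872 codons for Grm2 and 922 for Grm7.

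All 6 are protein coding genes, and their spans on the mm10 genome differ widely. Grm2 spans 13.0 kb at chr9:106643095-106656082 on the minus strand, and Grm4 spans 99.0 kb at chr17:27422387-27521403 on the minus strand. Grm3 spans 240 kb at chr5:9485541-9725170 on the minus strand, and Grm5 spans 551 kb at chr7:87584168-88134907 on the plus strand. Grm7 spans 922 kb at chr6:110645581-111567230 on the plus strand, and Grm8 spans 860 kb at chr6:27275119-28135178 on the minus strand. The annotation places antisense genes opposite Grm2 (Gm28111) and Grm7 (Gm20387) and an unclassified transcript opposite Grm4 (Gm49789). None of these has a value in any of the comparisons. No source used here says whether the counting used strand, so reads of such a pair may not have been told apart.

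The sequences just upstream of 3 of the genes that changed are shown, since Pou3f1 belongs to the POU factors, known for binding the octamer ATGCAAAT. Each line holds the 250 bases before a RefSeq transcription start on build GRCm38.p6 (the mm10 assembly), printed 5′ to 3′ on the gene's strand. Capitals mark ATGCAA, the first 6 letters of the octamer, on either strand (its reverse complement is TTGCAT). The octamer contains these letters, so every octamer match is also a match of the shorter motif.

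Grm7, chr6:110645262-110645511, plus strand: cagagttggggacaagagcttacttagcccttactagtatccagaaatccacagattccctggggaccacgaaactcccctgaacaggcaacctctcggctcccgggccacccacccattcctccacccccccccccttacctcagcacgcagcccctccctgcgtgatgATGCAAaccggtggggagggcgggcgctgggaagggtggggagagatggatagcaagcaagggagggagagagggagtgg

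Grm8, chr6:28135147-28135396, minus strand: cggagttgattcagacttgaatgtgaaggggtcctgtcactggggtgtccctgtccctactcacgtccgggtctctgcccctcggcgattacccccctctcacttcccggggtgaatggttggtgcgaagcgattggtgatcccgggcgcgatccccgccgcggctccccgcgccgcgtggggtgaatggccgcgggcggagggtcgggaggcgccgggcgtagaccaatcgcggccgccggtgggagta

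Grm2, chr9:106656110-106656359, minus strand: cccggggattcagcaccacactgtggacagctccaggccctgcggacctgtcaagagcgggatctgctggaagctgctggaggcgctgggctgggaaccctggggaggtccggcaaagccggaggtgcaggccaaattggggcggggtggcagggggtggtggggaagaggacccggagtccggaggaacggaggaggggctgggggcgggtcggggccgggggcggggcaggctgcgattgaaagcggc

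RefSeq windows were matched for 4 of the 6 members, Grm2, Grm3, Grm7 and Grm8, 7 windows in all. Grm7 has 2 starts, whose windows overlap, and Grm8 has 3. The full octamer was found in none of the 7 windows, and in 1.6% of all 32851 windows of the same length. The shorter motif was found at 1 place upstream of Grm7, its first base 80 bases before the first of its starts and 166 bases before the other, and in none of the windows of Grm2, Grm3 and Grm8. It lies in 9.45% of all windows, so a match of this kind is common. The printed upstream stretch of Grm2 is 71.2% G and C, that of Grm8 68.4% and that of Grm7 62.0%, against a median of 52.4% over all windows. The windows of Grm8 that are not printed have 54.4% and 43.6%, and that of Grm7 has 65.2%.

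The tables give the authors' own result per gene and no value for single libraries, so the depth of each library and the spread of a receptor between replicates are unknown beyond the standard error (SE). Mean counts summed to 16020800 at 48 h and 38507500 at 14 days. As a check of the labels, the log2 fold change of Pou3f1 was 0.91 ± 0.26 (SE) at 48 h, 5.57 ± 0.27 at 14 days and -0.69 in the E17.5 knockout by the authors' deposited table (adjusted p from 3.40e-88 to 0.0233). A positive value therefore means higher in Pou3f1 cells, or higher in the knockout. The Pou3f1 RNA counted in the knockout was 0.620 of the heterozygous level. The fold changes of the overexpression tables are shrunken toward 0 at low counts, so those of scarce receptors may be understated. A gene is called, or said to have risen or fallen, where the authors' adjusted p was under 0.05. Nothing in the labels says that samples of a group came from separate animals, and p-values then measure only the spread between these samples. In such bulk samples fewer cells of a type and less RNA per cell cannot be told apart.

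Receptor levels differed by more than an order of magnitude and not in the same way in the 2 tables. Each mean count was scaled to a sum of 1000000 over its table and divided by the length of the longest coding transcript in kb, which puts genes on 1 length-scaled measure. On this scale Grm7 was the highest of the 6 at 48 h, at 6.62, from a mean of 445 normalized counts in the authors' deposited table. The other 5 receptors lay between 0.258 (Grm5) and 0.530 (Grm4) at 48 h, from means of 17.8 to 39.1 normalized counts in the authors' deposited table. In mean count, between 7.74% and 15.0% of tested genes lay below each of these 5 receptors.

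At 14 days 3 receptors were in the upper range. Grm7 again stood highest at 5.47, followed by Grm5 at 3.34 and Grm8 at 3.06 on the length-scaled measure. Each value is a mean over Gfp and Pou3f1 libraries together. The order at 14 days therefore contains the 2.17-fold rise of Grm7 and the 1.79-fold fall of Grm8 described below. The order in Gfp cells alone may differ and was not computed. The authors' deposited table gives mean counts of 885 for Grm7, 1034 for Grm5 and 455 for Grm8 at 14 days. Grm4 (0.452), Grm2 (0.255) and Grm3 (0.209) stayed low on the same scale, with mean counts of 80.2, 46.3 and 24.6 in the authors' deposited table. The largest contrast between the 2 tables was that of Grm5, from 2.08 at 48 h to 26.9 at 14 days in scaled counts before division by length, and then that of Grm8, from 1.84 to 11.8. The tables were normalized separately and hold no library values, so this contrast between ages was not tested and neighbours in the order cannot be separated by their spread. For scale, the authors' deposited table lists Grm6 with a mean count of 12199 at 14 days.

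**Figure D1:**
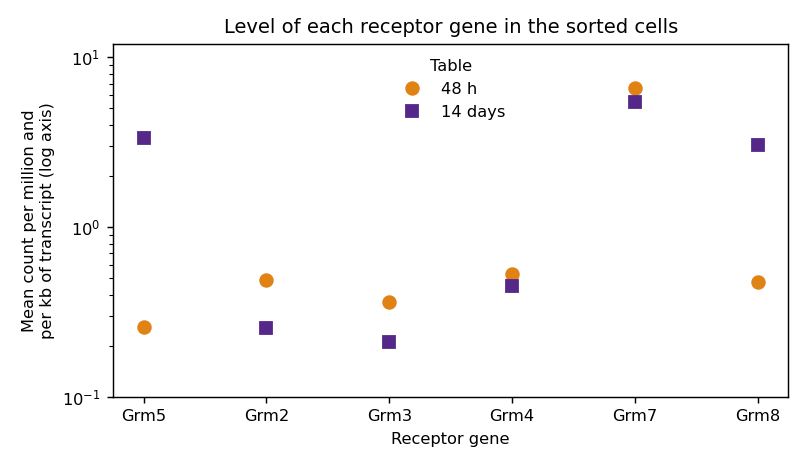
Level of each receptor gene, as mean normalized count scaled to a sum of 1000000 per table and per kb of the longest coding transcript (log axis), in the 48 h table (circles) and the 14 day table (squares), each the mean over all libraries of that table with no error available. Grm7 is high at both ages, near 6.62 and 5.47, while Grm5 and Grm8 are near 0.258 and 0.478 at 48 h and near 3.34 and 3.06 at 14 days.

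At 48 h, when the cells had carried the plasmid for a short time, 0 of 6 receptors were called, against 3.04% of all 14714 genes tested by DESeq2 in the authors' deposited table. The median log2 fold change of the 6 was 0.07, against -0.01 over all genes. Grm7, the one receptor with an appreciable level, had a log2 fold change of 0.12 ± 0.18, with a 95% interval from -0.23 to 0.46, by the authors' deposited table (adjusted p = 0.835). Grm2 had the largest value, -0.76 ± 0.30, and was the only member with an unadjusted p under 0.05 in the authors' deposited table (p = 0.00998 before adjustment by DESeq2, adjusted p = 0.154). The remaining receptors gave 0.41 ± 0.28 for Grm3, 0.11 ± 0.30 for Grm4, 0.04 ± 0.28 for Grm5 and -0.16 ± 0.29 for Grm8 by the authors' deposited table (adjusted p from 0.534 to 0.975). The 95% interval was -0.14 to 0.96 for Grm3, -0.47 to 0.68 for Grm4, -0.50 to 0.58 for Grm5 and -0.73 to 0.40 for Grm8.

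At 14 days 3 of 6 receptors were called, all of group III, against 20.7% of 17789 genes tested. Of these 2 were higher, against 11.5% of all genes, and 1 was lower, against 9.21% of all genes. The median over the 6 was 0.57, against -0.01 over all genes. Grm7 rose by 1.12 ± 0.14 on the log2 scale, 2.17-fold, with a 95% interval from 0.85 to 1.39 by the authors' deposited table (adjusted p = 1.21e-13). By adjusted p it ranked 78 among the 2051 genes that rose, and by size of the change 332. Grm4, a presynaptic receptor best known from the parallel fibre synapses of the cerebellum, rose by 0.94 ± 0.24, or 1.92-fold, by the authors' deposited table (adjusted p = 0.00169). Its level was far lower than that of Grm7, and its interval wider, from 0.46 to 1.42.

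Grm8 went the other way. It fell by 0.84 ± 0.19 on the log2 scale in the authors' deposited table (a log2 fold change of -0.84, adjusted p = 0.000302), which is 1.79-fold lower, with an interval from -1.22 to -0.46. The intervals of Grm7 and Grm8, which have the most similar coding sequences of the 6, lie on opposite sides of 0.

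Group I and group II receptors did not pass the test at 14 days. Grm5, the highest of the 6 in mean count, had 0.05 ± 0.18 by the authors' deposited table (adjusted p = 0.885), and its interval from -0.31 to 0.40 does not reach the changes seen for Grm4, Grm7 and Grm8. Grm3 had 0.71 ± 0.30 in the authors' deposited table, with an unadjusted p of 0.0157 and an adjusted p of 0.0677 in the DESeq2 result. Grm2 had 0.42 ± 0.29 by the authors' deposited table (adjusted p = 0.331). Both are at low counts, and their intervals reach up to 1.3 and 0.99, so a 1.92-fold rise like that of Grm4 lies within them. Grm6, a group III receptor outside the 6, had -0.04 ± 0.14 by the authors' deposited table (adjusted p = 0.866). The group III calls at 14 days are therefore those of Grm4, Grm7 and Grm8 and not of the whole group.

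**Figure D2:**
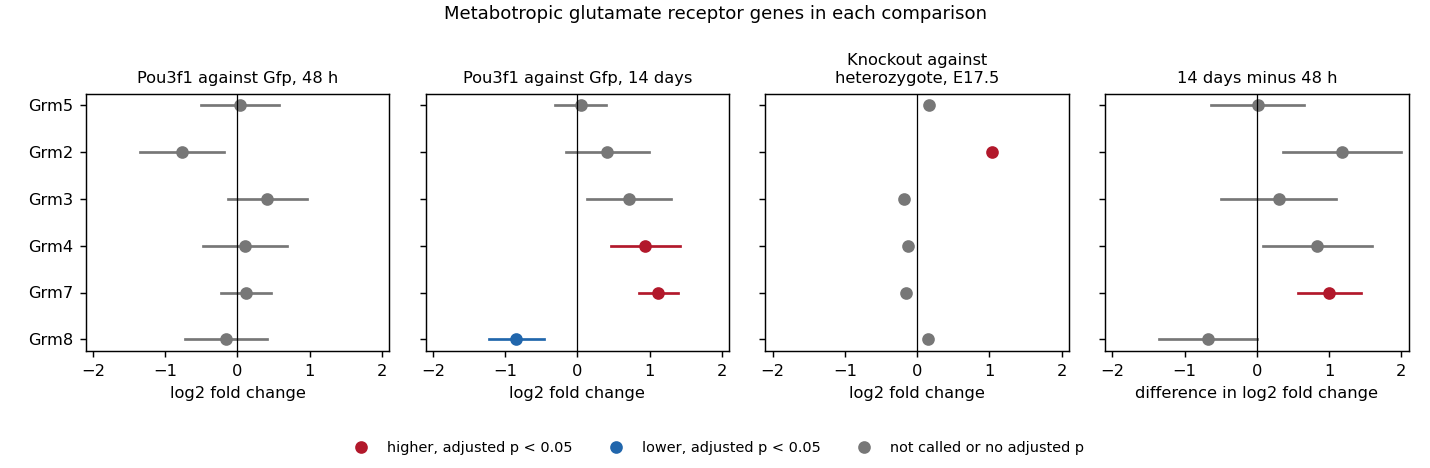
Log2 fold change of each receptor gene (points) with its 95% interval (lines; the E17.5 table gives no SE) in the 3 comparisons, and the difference of the 14 day and 48 h values. Red and blue mark an adjusted p under 0.05; Grm4 and Grm7 lie above 0 and Grm8 below 0 at 14 days, and Grm2 alone stands out at E17.5, at 1.04.

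**Figure D3:**
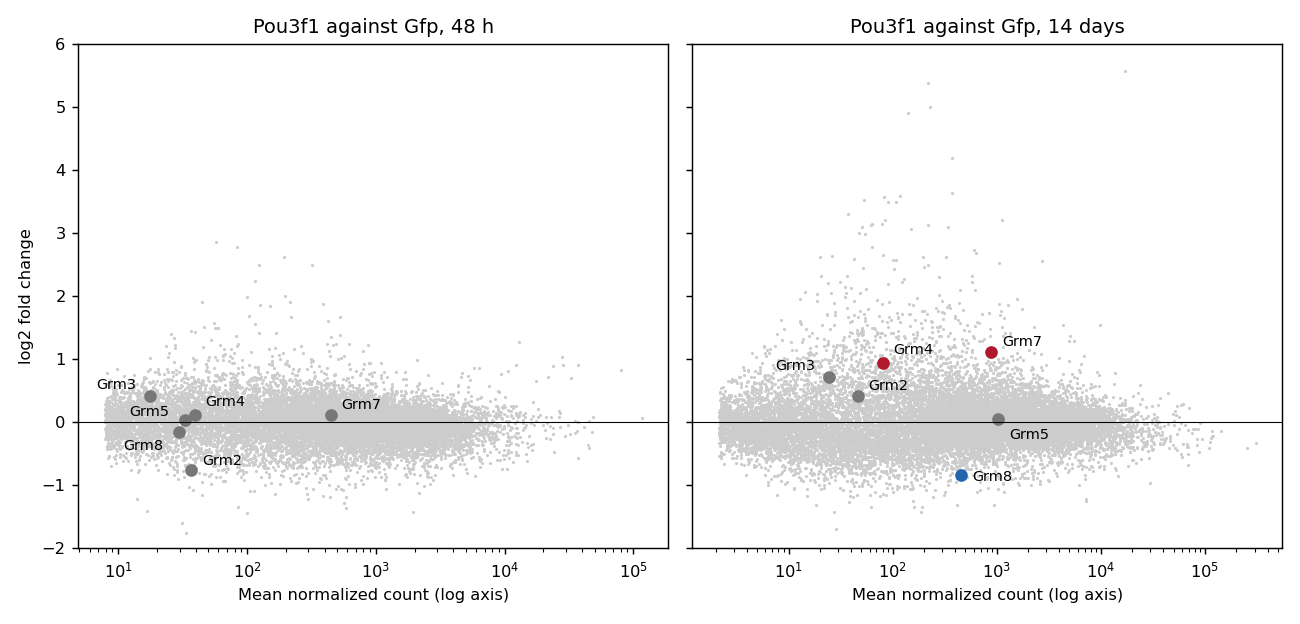
Log2 fold change (vertical axis) against mean normalized count (horizontal log axis) for all genes with an adjusted p (grey points) and the 6 receptors (large points, red higher and blue lower at an adjusted p under 0.05, dark grey otherwise) at 48 h and 14 days. Grm7 lies at 1.12 with a mean count of 885 at 14 days and near 0, at 0.12, at 48 h.

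Whether the response changed with time was asked directly, by a two-sided z test on the difference of the 2 fold changes with the SE of both, adjusted over the 14580 genes tested in both tables. The 2 comparisons share no samples. The difference passed for 1 of 6 receptors, against 6.14% of all genes. It was Grm7, whose log2 fold change was larger at 14 days by 1.0 ± 0.22 (95% interval 0.56 to 1.44, z test, adjusted p = 0.000591). For Grm4 the difference was 0.84 ± 0.38 (z test, adjusted p = 0.192) and for Grm8 -0.68 ± 0.35 (z test, adjusted p = 0.265), so their 14 day calls are not shown to be late responses. The Grm2 difference was the largest of the 6, 1.18 ± 0.42, from a negative value at 48 h to a positive one at 14 days, and did not pass either (z test, adjusted p = 0.0655). Grm3 (0.30 ± 0.41) and Grm5 (0.01 ± 0.33) had adjusted p of 0.751 and 0.991 by the same z test.

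In the E17.5 retina 1 of 5 receptors with an adjusted p was called, against 10% of 14821 genes, and it was higher in the knockout, against 4.70% of genes called higher. Grm2 rose by 1.04 on the log2 scale, 2.06-fold, by the authors' deposited table (adjusted p = 7.95e-11). It ranked 33 by adjusted p and 29 by size among the 696 genes that rose. The other group II receptor, Grm3, had -0.19, and the group III receptors had -0.13 for Grm4, -0.15 for Grm7 and 0.15 for Grm8 by the authors' deposited table (adjusted p from 0.498 to 0.705). Grm5 had 0.16 with an unadjusted p of 0.305 by DESeq2 and no adjusted p in the authors' deposited table. DESeq2 withholds the adjusted p alone, and keeps the p-value, for genes under its abundance filter. The median of the 5 tested was -0.13, against 0.00 over all genes. This table gives neither an SE nor an abundance, and it rests on 2 retina samples per group.

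Set side by side, Grm2 was at -0.76 at 48 h and 0.42 at 14 days with added Pou3f1, neither of which passed, and at 1.04 in the knockout, in the authors' deposited table. Grm7 and Grm4, which rose at 14 days, were at -0.15 and -0.13 in the knockout, and neither passed there (adjusted p = 0.498 and 0.623 in the authors' deposited table). These tables differ in age, strain and cell population as well as in Pou3f1, and no test was made between them.

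Genes whose fold changes over the 3 comparisons lay closest to a called receptor, among 13147 genes with an adjusted p in all of them, were found by Euclidean distance in log2 units over 3 values. Nearest to Grm7 were Helz2 (distance 0.073), Tmem255a (0.086) and Vash2 (0.090). Nearest to Grm4 were Lrfn4 (0.047), Gucy1a2 (0.076) and Inpp5f (0.085), and nearest to Grm8 were Glmn (0.057), Spry3 (0.088) and Tns2 (0.099). Grm2 had no near neighbour of that kind, the closest being Cacna1i at 0.434, with -0.46, 0.34 and 0.74 against -0.76, 0.42 and 1.04 for Grm2, in the order of the comparisons above, in the authors' deposited table. Next came Myh7b (0.605) and Trank1 (0.620). With 3 values per gene, closeness of this kind is a description of the tables only.

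The partners of the receptors were read from 5 lists. Of all genes tested, 1.48% rose and 1.56% fell at 48 h, and 11.5% rose and 9.21% fell at 14 days. At E17.5, 4.70% rose and 5.34% fell. List counts near these shares are not read as a response of the list. For the Gq pathway used by group I receptors, 1 of 13 tested genes rose and 0 fell at 48 h, 4 of 16 rose and 1 fell at 14 days, and 0 of 13 were called at E17.5, where 0 higher and 2 lower genes had an unadjusted p under 0.05 in the DESeq2 result of the authors' deposited table. Dgkb, a kinase that removes the second messenger diacylglycerol, rose by 1.87 ± 0.23 at 48 h (adjusted p = 3.79e-13) in the authors' deposited table. At 14 days Itpr2, a calcium release channel, rose by 0.92 ± 0.23 and Gnaq, the Gq subunit, by 0.31 ± 0.09, and the cation channel gene Trpc1 fell by 0.77 ± 0.18, by the authors' deposited table (adjusted p from 0.000421 to 0.01). The list medians were 0.00 at 48 h, 0.16 at 14 days and -0.06 in the knockout.

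For the Gi/o pathway used by groups II and III, 1 of 15 rose and 0 fell at 48 h, 2 of 16 rose and 4 fell at 14 days, and 0 of 15 rose and 4 fell at E17.5. Gnai1, a Gi subunit, rose at both ages of overexpression, by 1.0 ± 0.20 at 48 h and 1.06 ± 0.15 at 14 days by the authors' deposited table (adjusted p = 8.84e-05 and 3.15e-10). Genes of adenylyl cyclases, the enzymes that Gi restrains, moved in both directions at 14 days, Adcy1 with -0.57 ± 0.14 and Adcy5 with 0.37 ± 0.12 by the authors' deposited table (adjusted p = 0.000597 and 0.0199). At E17.5 Adcy5 (-0.61), Adcy1 (-0.35) and the potassium channel gene Kcnj9 (-0.57) fell by the authors' deposited table (adjusted p from 7.95e-05 to 0.00690). The list medians were -0.13, 0.12 and -0.01.

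Among regulators that switch G protein signals off, 0 of 12 rose and 1 fell at 48 h, 1 of 13 rose and 3 fell at 14 days, and 0 of 13 rose and 3 fell at E17.5. Rgs4, which speeds the shutdown of Gi and Gq, was called with opposite signs in the 2 experiments, at 1.31 ± 0.26 with added Pou3f1 at 14 days and at -0.97 in the knockout, by the authors' deposited table (adjusted p = 2.04e-05 and 1.17e-09). Rgs8 fell by 0.99 ± 0.17 at 48 h, Grk4, a receptor kinase gene, by 0.70 ± 0.19 and Rgs7 by 0.60 ± 0.21 at 14 days, and the arrestin gene Arrb1 by 0.53 and Rgs2 by 0.36 at E17.5, by the authors' deposited table (adjusted p from 3.87e-06 to 0.0255). The list medians were -0.07, 0.07 and -0.14.

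Of the scaffold and partner genes, 0 of 19 rose and 2 fell at 48 h, 3 of 20 rose and 0 fell at 14 days, and 0 of 20 rose and 1 fell at E17.5. Elfn1, whose product binds group III receptors across the synapse, fell by 1.02 ± 0.26 at 48 h by the authors' deposited table (adjusted p = 0.00759), an age at which no group III receptor passed. At 14 days, when Grm4, Grm7 and Grm8 passed, Elfn1 had -0.22 ± 0.11 by the authors' deposited table (adjusted p = 0.151). The postsynaptic scaffold gene Shank1 fell by 0.81 ± 0.18 at 48 h and by 0.51 at E17.5 by the authors' deposited table (adjusted p = 0.00122 and 0.0113). Dlgap3 (0.53 ± 0.12), Grip1 (0.52 ± 0.14) and Ncdn (0.22 ± 0.08), which encode postsynaptic proteins and, in Ncdn, a partner of the Grm5 product, rose at 14 days by the authors' deposited table (adjusted p from 0.000414 to 0.0222). The list medians were -0.14, 0.12 and -0.10.

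Of the genes that load, release and clear glutamate, 0 of 10 rose and 1 fell at 48 h, 1 of 11 rose and 4 fell at 14 days, and 0 of 11 rose and 2 fell at E17.5, with medians of -0.39, -0.37 and -0.05. Slc1a2, a glutamate transporter gene, fell in all 3 comparisons, by 0.51 ± 0.16 at 48 h, 0.39 ± 0.11 at 14 days and 0.46 in the knockout by the authors' deposited table (adjusted p from 0.00397 to 0.0372). Glul, glutamine synthetase of Müller glia, fell by 0.96 ± 0.19 at 14 days by the authors' deposited table (adjusted p = 1.51e-05). Slc1a1, another transporter gene, rose by 0.44 ± 0.14 at 14 days and fell by 0.49 in the knockout by the authors' deposited table (adjusted p = 0.00976 and 0.0491).

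**Figure D4:**
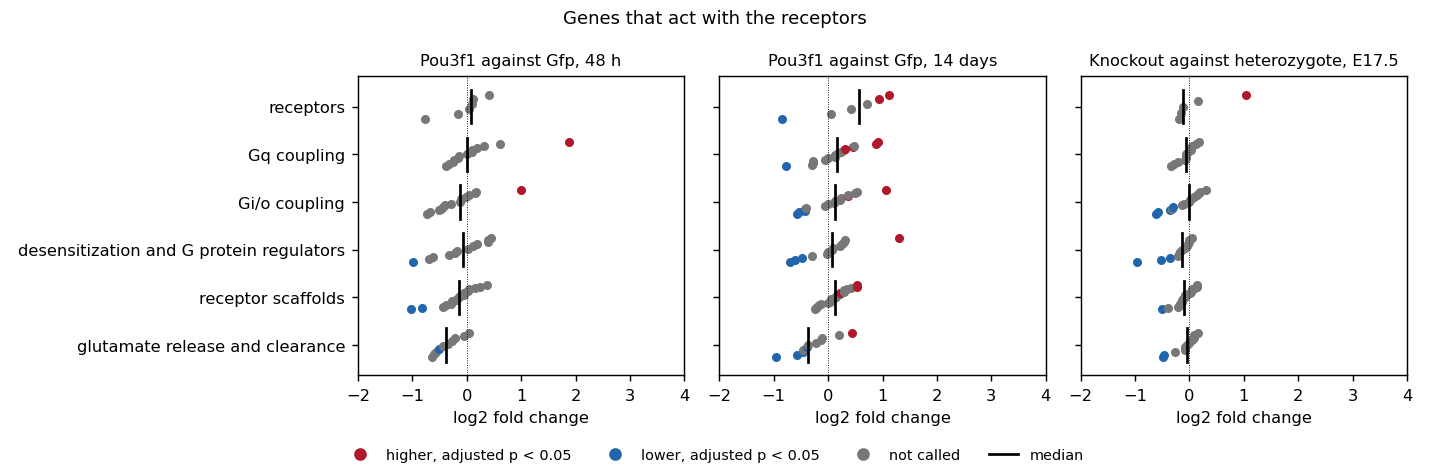
Log2 fold changes (horizontal axis) of the receptors and of 5 lists of genes that act with them (rows), 1 point per gene with an adjusted p, in the 3 comparisons; red is higher and blue lower at an adjusted p under 0.05, and black bars are medians. The receptor median stands at 0.57 at 14 days, while the list of glutamate release and clearance has medians of -0.39, -0.37 and -0.05.

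Markers of retinal and other cell types moved beside the receptors, and their part in the receptor results was not tested. The 14 day counts stand against 11.5% of all genes that rose and 9.21% that fell. At 14 days 0 of 11 rod markers rose and 9 fell (median -0.50), 0 of 9 cone markers rose and 7 fell (median -0.68), and 0 of 10 bipolar markers rose and 4 fell (median -0.28), beside the fall of Grm8. Müller glia markers also were lower, with 6 of 9 fallen (median -0.73). Beside the rise of Grm7 and Grm4 stood amacrine markers, of which 2 of 10 rose and 0 fell (median 0.37), Gad2 by 1.21 ± 0.23 and Gad1 by 0.82 ± 0.26 by the authors' deposited table (adjusted p = 9.35e-06 and 0.0123). Ganglion cell markers rose in 2 of 11 cases and fell in 0 (median -0.12), and the 2 were the transcription factor genes Pou4f2 and Ebf3, with 3.64 ± 0.26 and 2.68 ± 0.24 by the authors' deposited table (adjusted p = 7.86e-40 and 5.83e-26). Microglia are not among the cells that retinal progenitors form, and all 9 of their markers rose at 14 days, with log2 fold changes between 1.02 and 1.80. Horizontal cell markers gave 0 of 6 calls by DESeq2 (1 higher at an unadjusted p under 0.05), astrocyte and oligodendrocyte markers 2 rises of 6, and blood vessel markers 1 fall of 7.

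At 48 h, when no receptor passed, 1 of 4 bipolar, 1 of 7 cone and 1 of 7 blood vessel markers fell, and 1 of 11 ganglion cell markers rose. Over all genes 1.56% fell and 1.48% rose at that age. None of the tested amacrine (10), rod (2), Müller glia (8), horizontal (6), astrocyte and oligodendrocyte (7) and microglia (6) markers was called at that age by DESeq2. At an unadjusted p under 0.05, 6 Müller glia markers were lower, as were 1 amacrine, 1 rod and 1 astrocyte or oligodendrocyte marker, and 1 horizontal cell marker was higher.

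At E17.5 the rise of Grm2 stood beside a fall of most amacrine markers. Of 9 tested, 8 fell and 1 rose, with a median of -0.87, led by Tfap2a (-1.18), Tfap2b (-1.01), both transcription factor genes, and the GABA synthesis gene Gad1 (-1.36) by the authors' deposited table (adjusted p from 3.03e-33 to 8.76e-13). Over all genes 5.34% fell and 4.70% rose at this stage. Chat and Slc18a3 mark the starburst cells known to carry the Grm2 product. They had -0.02 and 0.01 at E17.5 and no adjusted p in the authors' deposited table (unadjusted p = 0.641 and 0.949 by DESeq2). Without an adjusted p these values do not show whether such cells were as many in both genotypes, which was not tested. Horizontal cell markers fell in 3 of 6 cases, 1 of them Tfap2b again, blood vessel markers in 3 of 8, and Müller glia and astrocyte and oligodendrocyte markers in 2 of 9 and 2 of 7. Of 11 ganglion cell markers 1 rose and 1 fell. None of the bipolar (4), rod (5), cone (7) and microglia (9) markers tested at E17.5 was called by DESeq2, although 1 bipolar, 1 rod, 3 cone and 1 microglia marker had an unadjusted p under 0.05, all lower. Of the 696 genes called higher in the knockout, 66 are annotated pseudogenes, and Grm2 is not one of them. The share of pseudogenes among all tested genes was not taken, so this count says nothing about Grm2.

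**Figure D5:**
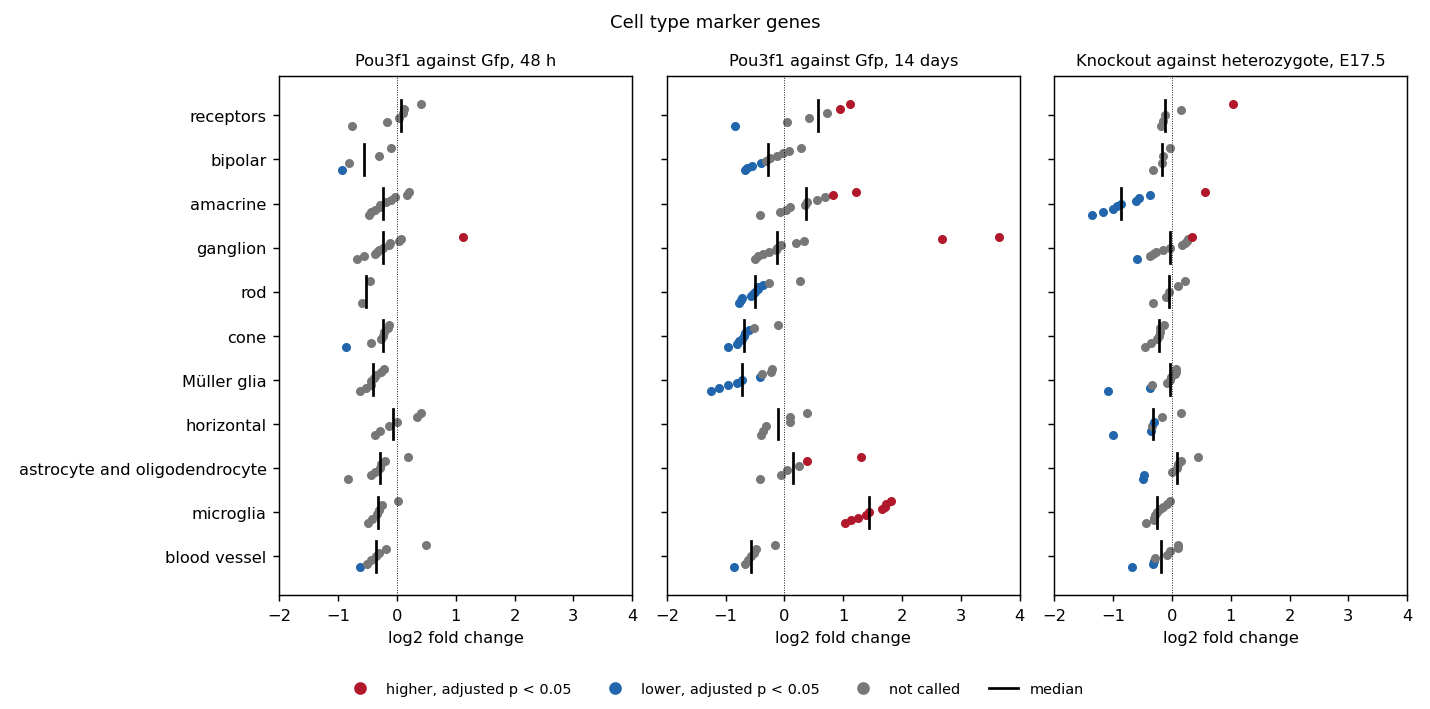
Log2 fold changes (horizontal axis) of the receptors and of 10 lists of cell type markers (rows), 1 point per gene with an adjusted p, in the 3 comparisons; red is higher and blue lower at an adjusted p under 0.05, and black bars are medians. At 14 days the 9 microglia markers lie between 1.02 and 1.80 and the rod, cone and Müller glia medians between -0.73 and -0.50, and at E17.5 the amacrine median is -0.87.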

How the data were processed

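RNA-seq was measured in 19 mouse retina samples in 6 groups. The submitters' processing notes name Salmon, DESeq2, MACS2 and the mm10 build; no source used here gives versions, annotation, strand setting or design formula. Each of the 3 tables deposited by the authors is 1 finished comparison without values per library. Its log2 fold changes and SE are the authors', and their size under a mean count of 1 stayed within 0.104 at 48 h, against up to 2.62 among genes of moderate counts, as shrinkage gives. The deposited signal is the mean normalized count over the libraries of a comparison, and the deposited score is a Wald score per the file headers. The p-values and Benjamini-Hochberg adjusted p are the authors', with no adjusted p for part of the genes.

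Intervals of 95% were taken as normal intervals of the fold change. The z test between ages was adjusted over all genes tested in both tables. It was also run on simulated fold changes, drawn without shrinkage and with the SE that the test itself uses. That run cannot show how the test behaves on shrunken values. The members, lists and tests were chosen with earlier results of these data known. Named genes are the members, Pou3f1, Grm6, up to 3 called genes per list and comparison by adjusted p, and the 3 genes nearest to each called member; Elfn1 at 14 days, Chat and Slc18a3 were named after their values were seen. A gene that this rule names is not reported here. Identity came from global alignment of coding sequences (Biopython 1.88, match 2, mismatch -1, gap opening -8, gap extension -0.5). Upstream sequences are from RefSeq. Results were recomputed at a stricter threshold (0.01), with a limit of 2-fold, without the authors' abundance filter, at mean counts of at least 10 or 100, and after centring on the median gene. Software was Python 3.11.15 with numpy 2.4.6, pandas 2.3.3, matplotlib 3.10.9 and scipy 1.17.1.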

Additional observations from a re-analysis of the deposited data

Results flagged for a closer look

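The response of Grm7 to added Pou3f1 differed between the 2 ages. The authors' deposited table gives it a log2 value of 0.12 ± 0.18 at 48 h and of 1.12 ± 0.14 at 14 days, a difference of 1.0 ± 0.22 (z test, adjusted p = 0.000591). The 2 ages also differ in how much Pou3f1 differed from control, 0.91 ± 0.26 at 48 h and 5.57 ± 0.27 at 14 days on the log2 scale in the authors' deposited table, and its part in the Grm7 difference was not tested.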

How the results depend on the processing

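With a limit of at least 2-fold added to the adjusted p, 1 receptor was called at 14 days in place of 3: Grm7 remained, and Grm4 and Grm8 fell short of the limit. With a mean count of at least 100 the number was 2, since Grm4 (80.2) is below that limit. The 14 day count was 3 under the other 4 alternatives, an adjusted p under 0.01, adjustment over all genes, a mean count of at least 10 and centring on the median. The counts of 0 at 48 h, 1 at E17.5 and 1 for the difference between ages were the same under each alternative run for them. No paired analysis was possible because the tables hold no values per library, and leaving out single replicates was not run for the same reason. Mean count limits and centring were not run at E17.5, whose table gives no abundance or SE. The low counts of Grm2, Grm3 and Grm4, and at 48 h of Grm5 and Grm8, go with SE of 0.24 to 0.30, above the medians of all tested genes (0.199 at 48 h and 0.150 at 14 days). An SE above the median is not limited to scarce receptors. At 14 days Grm5 and Grm8 had 0.181 and 0.193, at mean counts of 1034 and 455.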

Other observations

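The genes around the called receptors were counted after the receptor values were seen. Within 2 Mb of Grm2, 9 of 87 other genes were called at E17.5, 10.3%, against 10% of all genes. Within the same distance at 14 days, 3 of 26 genes around Grm7 (11.5%), 18 of 106 around Grm4 (17.0%) and 5 of 25 around Grm8 (20.0%) were called, against 20.7% of all genes. The calls near each receptor went in both directions, 6 higher and 3 lower around Grm2 at E17.5, and 1 and 2 around Grm7, 10 and 8 around Grm4 and 3 and 2 around Grm8 at 14 days.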
